A study of Mus musculus with 12 samples.

Results

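The glutathione S-transferase (GST) genes described here were 10 of the 21911 protein-coding genes of the mouse annotation, chosen by symbol. They were the alpha-class genes Gsta2, Gsta3 and Gsta4, the mu-class genes Gstm1, Gstm2, Gstm3, Gstm4 and Gstm6, the pi-class gene Gstp1 and the theta-class gene Gstt1. Their signal was taken from peaks of histone H3 acetylated at lysine 9 (H3K9ac) that overlapped the gene body or the 5 kb either side of the gene start (GENCODE M21, mm10), called the window of a gene below. Each of the 10 genes had a peak in its window in at least 1 of the 6 lists.

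GSTs join the tripeptide glutathione to electrophilic drugs, carcinogens and products of lipid peroxidation, which makes these compounds soluble and ready for export. The soluble enzymes are dimers and are grouped into classes by sequence, and hepatocytes are among the cells richest in them. Several alpha, mu and pi genes are known targets of the oxidative stress regulator Nrf2, which binds antioxidant response elements, and H3K9ac marks active promoters and the first part of transcribed genes.

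Chromatin from liver of adult mice was precipitated with the H3K9ac antibody ab4441 and sequenced (ChIP-seq). The labels name 12 samples, 6 of them input libraries not analysed here. C57BL/6J (B6), the strain of the reference genome, had 2 libraries, and MSM/Ms (MSM), an inbred strain from Japanese wild mice, had 2 libraries. The reciprocal F1 hybrids had 1 library each, F1 BM and F1 MB. Read with the mother first, F1 BM had a B6 mother and an MSM father and F1 MB the reverse, an order that the titles do not state. All 6 libraries shared the tissue and the antibody, the labels name no treatment, each parental library was 1 mouse, and the F1 values carry no replicate error. The comparison asked where the acetylated regions of the strains differ.

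The 6 peak lists held 11619 to 22968 peaks covering 6.28 to 16.0 Mb, and the B6 libraries were the longest and the shortest list, B6 replicate 1 with 16.0 Mb and B6 replicate 2 with 6.28 Mb. The values of the GST genes are therefore also given with lists of equal size. Of 9 hepatocyte markers found, 8 had a peak within 1 kb of the start in every library, against 0 of 7 lymphocyte markers and 0 of 7 Kupffer cell markers in any library. Liver endothelial markers had 0 to 6 of 7 and were highest in F1 BM, hepatic stellate cell markers had 0 to 2 of 7, and cholangiocyte markers had 1 of 6 in B6 replicate 1 and 0 elsewhere. Other organ markers had 0 of 8 in every library. The part of cell make-up in the GST values was not tested.

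In mm10, the alpha genes lay at chr1:21240589-21265661 on the plus strand (Gsta3), chr9:78331018-78355788 on the minus strand (Gsta2) and chr9:78182774-78209349 on the plus strand (Gsta4). The 5 mu genes among the 10 lay on the minus strand of chromosome 3 within one cluster. They ran from Gstm6 (chr3:107938847-107943749) through Gstm3 (chr3:107963696-107969283), Gstm2 (chr3:107981702-107986453) and Gstm1 (chr3:108012255-108017973) to Gstm4 (chr3:108040408-108044894). Gstp1 (chr19:4035407-4037985) and Gstt1 (chr10:75783813-75798584) were also on the minus strand. The window of Gstp1 also held part of its neighbour Gstp2. GST genes arose by duplication, and reads from near-identical copies can be placed at a wrong copy. Of the 50-base words under the peaks, 21.3% at Gsta2, 15.7% at Gstm6, 9.55% at Gstm2 and 7.40% at Gstm1 occurred elsewhere in the genome. At the other 6 genes the share was below 1%, 0.599% at Gsta3 and 0.667% at Gstp1 being the highest.

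The promoters differed in CG content and in the letters of known motifs. RefSeq (GRCm38.p6) gave 300-base promoters, 250 bases before and 50 after the start, for 9 of the 10 genes, all but Gsta4. Gstp1 held 20 CG dinucleotides and Gstm1 and Gstm4 14 each, against a median of 7 over 32851 promoters. Gstt1 held 8, Gstm3 5, Gstm2 3, and Gsta2 and Gsta3 2 each, and the 3 RefSeq starts of Gstm6 held 4, 5 and 9. The value of Gstm1 is that of its upstream start, its other start holding 8. The core of the antioxidant response element, TGACNNNGC on either strand, was found in 1 of the 9 genes (Gsta3) and in 12.4% of all promoters. The core of the xenobiotic response element, GCGTG on either strand, which the aryl hydrocarbon receptor binds, was found in Gsta2, Gstm1 and Gstp1 and in 32.4% of all promoters. TATAAA on either strand was found in Gsta2 and at the second start of Gstm1, against 13.6% of all promoters, and the HNF4 letters CAAAGTCCA in none of the 9, against 0.475%. These matches are letters in a window and were not tested for binding.

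Bases before the start of 4 genes are printed 5′ to 3′ on the strand of the gene. They were chosen because the length of promoter under peaks, given below, differed between these genes. The Gsta3 bases printed lay under no peak in any library. Capitals mark a match to one of the motifs above, TGACATTGC at −121 to −113 in Gsta3 and GCGTG at −76 to −72 in Gstm1. Gsta3 is chr1:21240335-21240584, Gstm1 chr3:108017974-108018223, Gstt1 chr10:75797732-75797981 and Gstp1 chr19:4037986-4038162. The Gstp1 sequence stops 73 bases before the RefSeq start, where an annotated UTR begins, so its GCGTG at −13 to −9 is not in the printed part.
Gsta3: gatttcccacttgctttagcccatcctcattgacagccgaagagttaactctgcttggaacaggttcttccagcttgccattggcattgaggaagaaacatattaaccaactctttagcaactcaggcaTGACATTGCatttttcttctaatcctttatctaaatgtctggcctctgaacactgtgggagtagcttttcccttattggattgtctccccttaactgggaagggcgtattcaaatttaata
Gstm1: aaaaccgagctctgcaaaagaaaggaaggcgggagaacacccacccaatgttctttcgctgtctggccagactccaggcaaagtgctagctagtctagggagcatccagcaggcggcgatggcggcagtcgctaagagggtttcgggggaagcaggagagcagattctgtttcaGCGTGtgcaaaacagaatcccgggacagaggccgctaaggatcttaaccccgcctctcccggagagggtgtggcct
Gstt1: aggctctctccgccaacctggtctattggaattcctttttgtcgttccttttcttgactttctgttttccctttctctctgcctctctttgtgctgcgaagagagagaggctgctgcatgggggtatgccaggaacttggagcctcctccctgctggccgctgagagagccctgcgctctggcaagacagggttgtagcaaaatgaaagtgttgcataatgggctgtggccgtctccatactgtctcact
Gstp1: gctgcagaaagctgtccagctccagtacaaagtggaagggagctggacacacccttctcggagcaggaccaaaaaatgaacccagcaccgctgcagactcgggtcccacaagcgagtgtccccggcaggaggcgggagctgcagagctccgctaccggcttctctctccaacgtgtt

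The 300-base promoters are set at RefSeq starts, not GENCODE starts. Counted from GENCODE, the RefSeq start lies at 853 bp in Gstt1, 73 in Gstp1, 0 in Gstm1 and −4 in Gsta3. The covered bases thus do not compare like positions of these genes. The promoter of Gstt1 lay largely under peaks, with 295 and 184 bases covered in B6, 264 and 255 in MSM, 208 in F1 BM and 186 in F1 MB. At the upstream start of Gstm1 133 and 56 bases were covered in B6, 90 and 77 in MSM, 68 in F1 BM and 66 in F1 MB. In the promoter of Gsta3 0 to 34 bases were covered, all after the start, since its peak began past the start in every library. At Gstp1 all 300 bases were covered in B6 replicate 1, 42 in B6 replicate 2, 49 in MSM replicate 2 and 0 in the other 3 libraries.

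**Figure D1:**
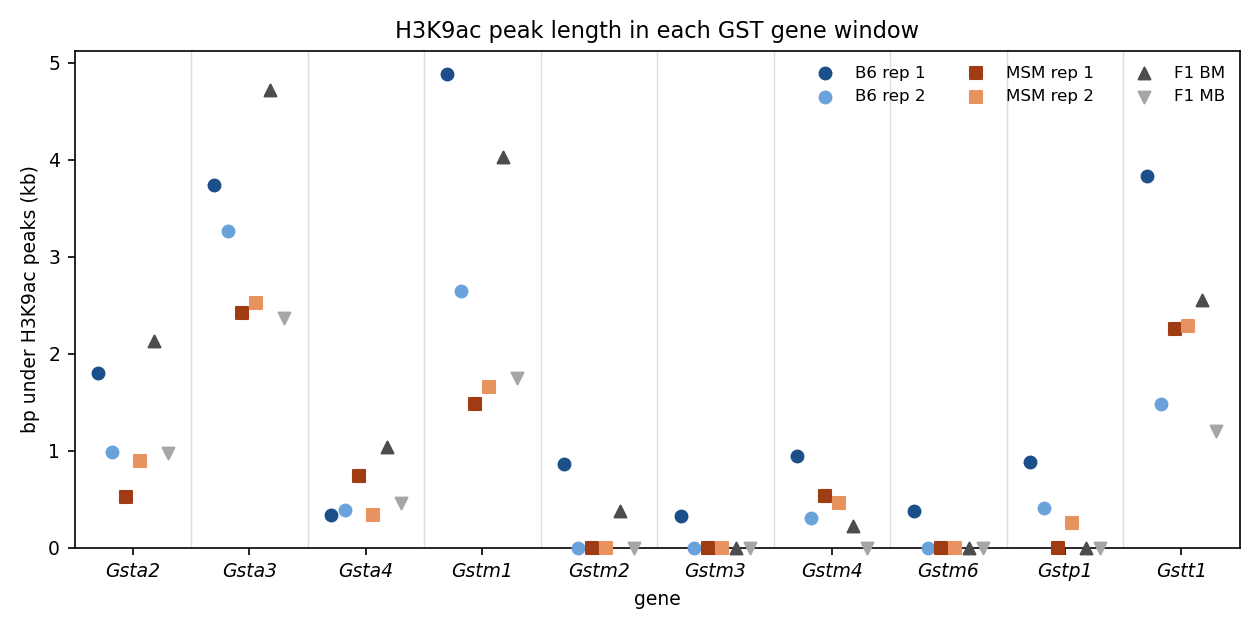
Length under H3K9ac peaks (kb, y axis) in the window of each of the 10 GST genes (x axis), 1 point per library, with B6 in blue circles, MSM in orange squares and the F1 hybrids in grey triangles. The points of Gsta3, Gstm1 and Gstt1 reach from 1.20 to 4.88 kb, while Gstm2, Gstm3 and Gstm6 are at 0 in 4 or 5 of the 6 libraries.

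Gsta2, Gsta3, Gstm1 and Gstt1 had a peak within 1 kb of the GENCODE gene start in all 6 libraries. This was 4 of 10, beside 23.6% of all protein-coding genes. The count was 3 with lists of the same covered length, where Gsta2 was lost, and 3 where 50% of a peak had to lie within that distance, where Gsta3 was lost. Counting every coding transcript start added Gsta4 and gave 5 of 10, beside 25.7%. The windows held 24 separate regions over the 6 lists, of which 9 were found in all 6 libraries and 7 in a single library, 6 of those in B6 replicate 1 and 1 in F1 BM. The same shares over all regions of the 6 lists were not computed, so these counts do not set the GST genes apart from others.

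By length under peaks, Gsta3 stood at the 96.1 to 99.0 percentile of all protein-coding genes in every library, Gstm1 at the 90.9 to 98.2 percentile and Gstt1 at the 91.1 to 96.7 percentile. These 3 ranges overlapped, so the 3 genes are not ordered among themselves. Gsta2 was at the 71.3 to 93.0 percentile and Gsta4 at the 52.8 to 81.8 percentile, ranges that overlap each other, and that of Gsta2 overlaps those of Gstm1 and Gstt1. All 4 genes with start peaks in every library had more bases under peaks downstream than upstream of the GENCODE start within 5 kb. This held in each of the 6 libraries, 4 of 4, beside 63.3% of the 5715 genes with a peak there in all 6. The RefSeq starts of Gsta2 and Gstt1 lie 8643 and 853 bp downstream of the GENCODE starts, and the sides of those RefSeq starts were not computed. At that of Gsta2 only B6 replicate 1 and F1 BM had a peak within 1 kb.

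Gsta3, which encodes the alpha enzyme with high activity toward aflatoxin epoxide in mouse liver, carried one long peak that began 12 to 87 bp after the start and ended 2345 to 3479 bp after it. The length under peaks was 3734 and 3269 bp in B6, 2418 and 2524 bp in MSM, 4715 bp in F1 BM and 2366 bp in F1 MB. Both B6 libraries were above both MSM libraries, and the F1 libraries lay at opposite ends, F1 BM above and F1 MB below all 4 parents. With lists of the same covered length the F1 libraries were no longer at the ends. F1 BM had 3415 bp, within the B6 range (3448 and 3269 bp), and F1 MB 2366 bp, between the MSM libraries (2418 and 2282 bp). B6 averaged 3501.5 ± 329 bp and MSM 2471 ± 75.0 bp (SD, n = 2), a difference of 1030.5 bp beside a pooled SD of 238 bp. As percentiles of all genes in the same library the strains of Gsta3 overlapped, at 96.5 and 99.0 in B6 and 96.1 and 96.5 in MSM. With 2 libraries a strain the exact two-sided permutation test cannot give a p below 0.333, and it gave 0.333 here.

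The added length of Gsta3 in B6 lay in the downstream part of the acetylated region, in sequence annotated as intron. The long peak ran to 3479 and 2829 bp in B6 and to 2429 and 2345 bp in MSM. MSM replicate 2 had a further peak at 3085 to 3326 bp, with a fold of 5.36, and B6 replicate 2 one at 3077 to 3602 bp, with a fold of 4.73. Of the 3146 bp under both B6 lists, 561 bp (17.8%) were under no MSM peak, and 400 of them formed one stretch from 2430 to 2829 bp. F1 BM covered 560 of the 561 bp and F1 MB 3. The whole list of F1 BM covered 12.3 Mb and that of F1 MB 7.46 Mb, and the part of list length in these counts was not tested.

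The strongest fold enrichment in the window of Gsta3 went the other way. It was 8.99 and 6.89 in B6, 11.6 and 11.9 in MSM, 8.06 in F1 BM and 8.99 in F1 MB, where fold enrichment is a linear ratio over the background of each library. Both MSM libraries were above both B6 libraries by 3.81 on average, beside a pooled SD of 1.06 (exact permutation p = 0.333). As percentiles of the folds in each list, B6 stood at 84.0 and 88.0 and MSM at 97.1 and 97.1. F1 BM was at 97.6, above all 4 parents, and F1 MB at 94.9. Longer coverage in B6 with a stronger peak in MSM occurred in 1 of the 6 GST genes with a peak in all 4 parental libraries, beside 0.641% of all such genes. That 1 gene is Gsta3, whose own pattern the combination describes, so the count is no test of the GST genes. In F1 BM a further peak lay upstream, 598 to 320 bp before the start, in no annotated gene.

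The sequence printed here is the middle 250 bases of the 400-base stretch of Gsta3 that both B6 lists and no MSM list covered, chr1:21243094-21243343 on the plus strand, from 2505 to 2754 bp after the start and wholly intronic. It is shown because the long peak ended before it in both MSM libraries, the further peak of MSM replicate 2 beginning after it.
Gsta3 intron: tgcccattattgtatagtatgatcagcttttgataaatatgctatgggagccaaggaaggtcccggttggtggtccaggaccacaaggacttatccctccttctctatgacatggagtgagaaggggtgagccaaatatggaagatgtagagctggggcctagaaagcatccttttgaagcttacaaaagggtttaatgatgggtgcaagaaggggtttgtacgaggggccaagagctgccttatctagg

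**Figure D2:**
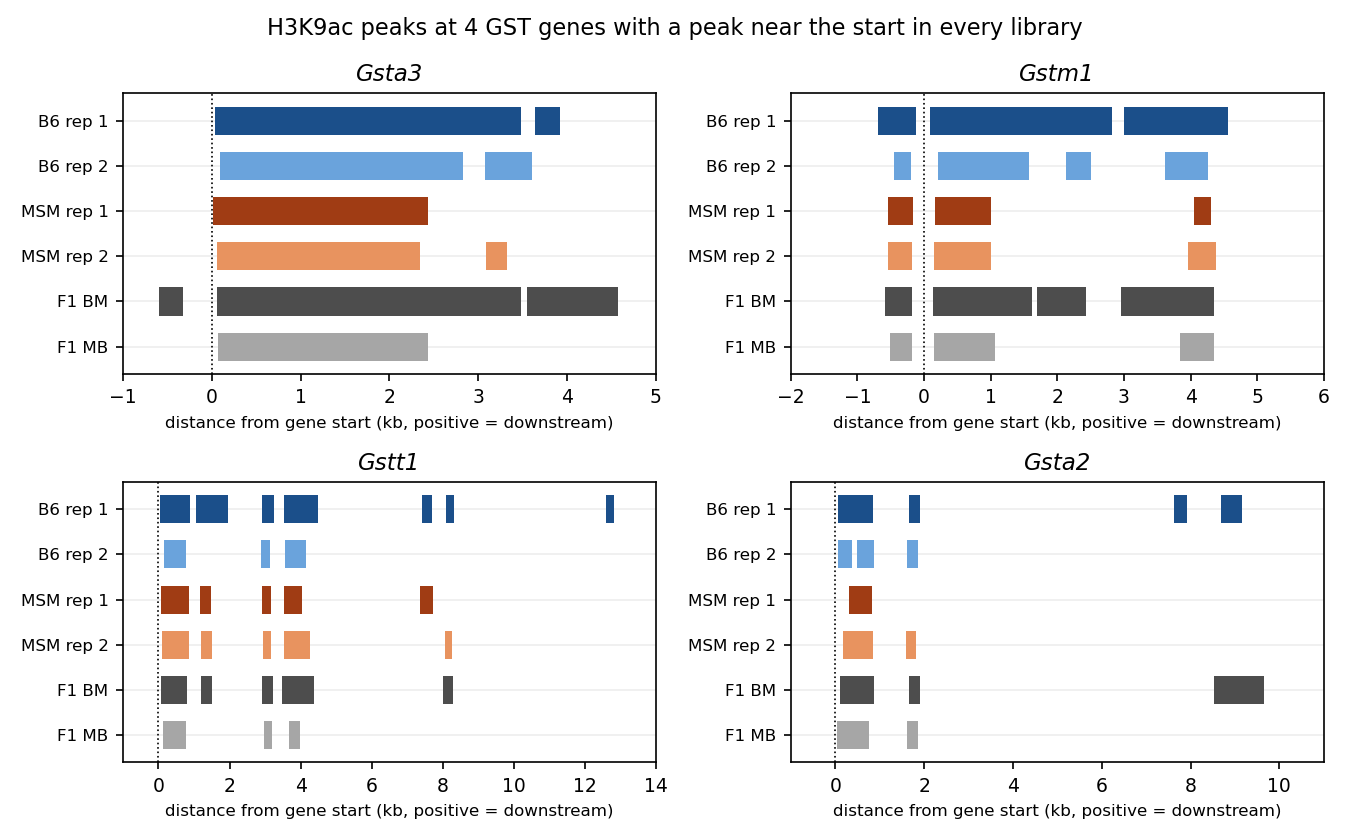
Position of the H3K9ac peaks of each library (rows, 6 libraries) at Gsta3, Gstm1, Gstt1 and Gsta2, as distance from the GENCODE gene start in kb (x axis, positive downstream, dotted line at the start), each bar being 1 peak to scale. The long bar at Gsta3 ends by 2.43 kb in MSM and at 2.83 kb or beyond in B6, with a further MSM replicate 2 bar from 3.08 kb, and the first bar after the start of Gstm1 ends near 1.00 kb in MSM and at 1.58 kb or beyond in B6, with further bars near 4 kb in all 6 libraries.

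Gsta2, an alpha enzyme with peroxidase activity toward lipid hydroperoxides, had 1798 and 989 bp under peaks in B6, 519 and 892 bp in MSM, 2135 bp in F1 BM and 973 bp in F1 MB. The strains did not overlap, but by 97 bp only, and F1 BM was above all 4 parents. B6 averaged 1393.5 ± 572 bp and MSM 705.5 ± 264 bp (SD, n = 2), a difference of 688 bp beside a pooled SD of 445 bp. Leaving out B6 replicate 1 gave a difference of 283.5 bp, and leaving out B6 replicate 2 gave 1092.5 bp. With lists of the same covered length the strains overlapped (0 and 989 bp in B6, 0 and 681 bp in MSM) and F1 BM had 0 bp. One region 35 to 880 bp after the start was found in all 6 libraries, and one at 1598 to 1914 bp in all but MSM replicate 1.

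The RefSeq start of Gsta2 lies 8643 bp downstream of the GENCODE gene start, and a peak lay within 1 kb of it in B6 replicate 1 and F1 BM only, the libraries with the largest lists. The peak nearest it had a fold of 4.71 in B6 replicate 1 and 2.52 in F1 BM, and B6 replicate 1 had another at 7624 to 7910 bp after the gene start, with a fold of 4.42. The strongest fold in the window was 5.81 and 4.79 in B6, 4.93 and 6.71 in MSM, 3.25 in F1 BM and 5.16 in F1 MB. On that scale the strains overlapped. Copies of 21.3% of the words under the Gsta2 peaks occur elsewhere, and the part of that in these values was not tested.

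Gsta4, which encodes the alpha enzyme specialised for 4-hydroxynonenal, had a single peak in each library, 9104 to 10141 bp after the gene start. It lay at the second coding transcript start, 9173 bp downstream, and no library had a peak at the first. The length under it was 338 and 393 bp in B6, 736 and 337 bp in MSM, 1038 bp in F1 BM and 461 bp in F1 MB. The strains overlapped, MSM replicate 1 being the longest parent and MSM replicate 2 the shortest. The fold was low, 4.35 and 3.10 in B6, 2.76 and 3.31 in MSM, 2.37 in F1 BM and 4.54 in F1 MB, which put the peak at the 2.50 to 48.9 percentile of each list.

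Gstm1, a major mu enzyme of mouse liver, carried peaks on both sides of the start in every library, with none over the start itself. An upstream peak lay 692 to 118 bp before the start, a further region 82 to 2822 bp after it and another 2956 to 4560 bp after it, and all 3 regions were found in all 6 libraries. The upstream region overlapped exons of the non-coding gene Gm12498 over 372 bp. Regions downstream held 360 and 184 coding bp of Gstm1 and were otherwise mostly intron.

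Gstm1 had 4878 and 2645 bp under peaks in B6, 1484 and 1662 bp in MSM, 4026 bp in F1 BM and 1747 bp in F1 MB. Both B6 libraries were above both MSM libraries by at least 983 bp, F1 BM lay within the range of the B6 libraries, and F1 MB lay between the strains. B6 averaged 3761.5 ± 1579 bp and MSM 1573 ± 126 bp (SD, n = 2), 2.39 times as much, a difference of 2188.5 bp beside a pooled SD of 1120 bp (exact permutation p = 0.333). With B6 replicate 1 left out it was 1072 bp, and with B6 replicate 2 left out 3305 bp. With the lists cut to the same covered length, B6 had 3316 and 2645 bp and MSM 1221 and 1662 bp, and the strains still did not overlap.

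The peak downstream of the start of Gstm1 ended 998 and 1008 bp after the start in MSM, 2822 and 1580 bp in B6, 1627 bp in F1 BM and 1062 bp in F1 MB. Of the 2645 bp under both B6 lists, 1299 bp (49.1%) were under no MSM peak, in stretches of 572, 383 and 344 bp that began 1009, 2128 and 3618 bp after the start. F1 BM, with a list of 12.3 Mb, covered 1216 of these 1299 bp, and F1 MB, with 7.46 Mb, covered 180. The part of list length in that was not tested. The first stretch held 183 coding bp and the others were intron.

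The strongest fold at Gstm1 was 12.1 and 7.22 in B6, 6.12 and 6.76 in MSM, 4.63 in F1 BM and 6.06 in F1 MB. Both B6 libraries were again above both MSM libraries, by 3.20 on average beside a pooled SD of 2.44, and the closest B6 and MSM values were 0.455 apart. The difference was 0.777 without B6 replicate 1 and 5.61 without B6 replicate 2. In raw fold both F1 libraries were below all 4 parents, F1 BM being the library with the lowest median fold over all its peaks (3.38, against 4.49 to 5.23 in the others). As percentiles of the folds in each list they lay between the strains, at 79.9 in F1 BM and 76.9 in F1 MB, against 93.9 and 89.9 in B6 and 70.5 and 76.6 in MSM.

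The middle 250 bases of the 572-base stretch of Gstm1 covered in both B6 libraries and no MSM library are printed 5′ to 3′ on the minus strand, chr3:108016554-108016803, from 1170 to 1419 bp after the start. Capitals mark the 47 coding bases at its end, the rest being intron.
Gstm1 stretch: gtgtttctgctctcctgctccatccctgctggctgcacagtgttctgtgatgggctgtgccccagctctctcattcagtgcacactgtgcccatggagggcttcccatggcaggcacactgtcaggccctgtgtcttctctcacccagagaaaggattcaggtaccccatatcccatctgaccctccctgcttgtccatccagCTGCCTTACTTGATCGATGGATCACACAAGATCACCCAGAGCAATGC

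Gstm4, a mu enzyme, had its main region 131 to 821 bp after the start in 5 libraries, all but F1 MB. The length under peaks was 947 and 307 bp in B6, 534 and 467 bp in MSM, 230 bp in F1 BM and 0 bp in F1 MB, and the strains overlapped because the B6 libraries lay on either side of MSM. Only B6 replicate 1 had a further peak upstream, 455 to 151 bp before the start. The strongest fold was 6.16 and 2.91 in B6, 4.32 and 4.05 in MSM and 2.45 in F1 BM.

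The other 3 mu genes among the 10 had peaks in few libraries. Gstm2 had 863 bp under peaks in B6 replicate 1, with a strongest fold of 3.93, and 382 bp in F1 BM, with a fold of 3.62, 67 to 705 bp after the start and at 1114 to 1354 bp in B6 replicate 1. Gstm6 had 376 bp in B6 replicate 1 alone, at a fold of 4.15 and 466 to 841 bp after the start. Gstm3 had 331 bp in B6 replicate 1 alone, at a fold of 3.26 and 3427 to 3097 bp before the start, in no annotated gene. B6 replicate 1 has the longest list, B6 replicate 2 had no peak at any of these 3 genes. A gene without a peak may still be acetylated below the detection limit of its library.

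**Figure D3:**
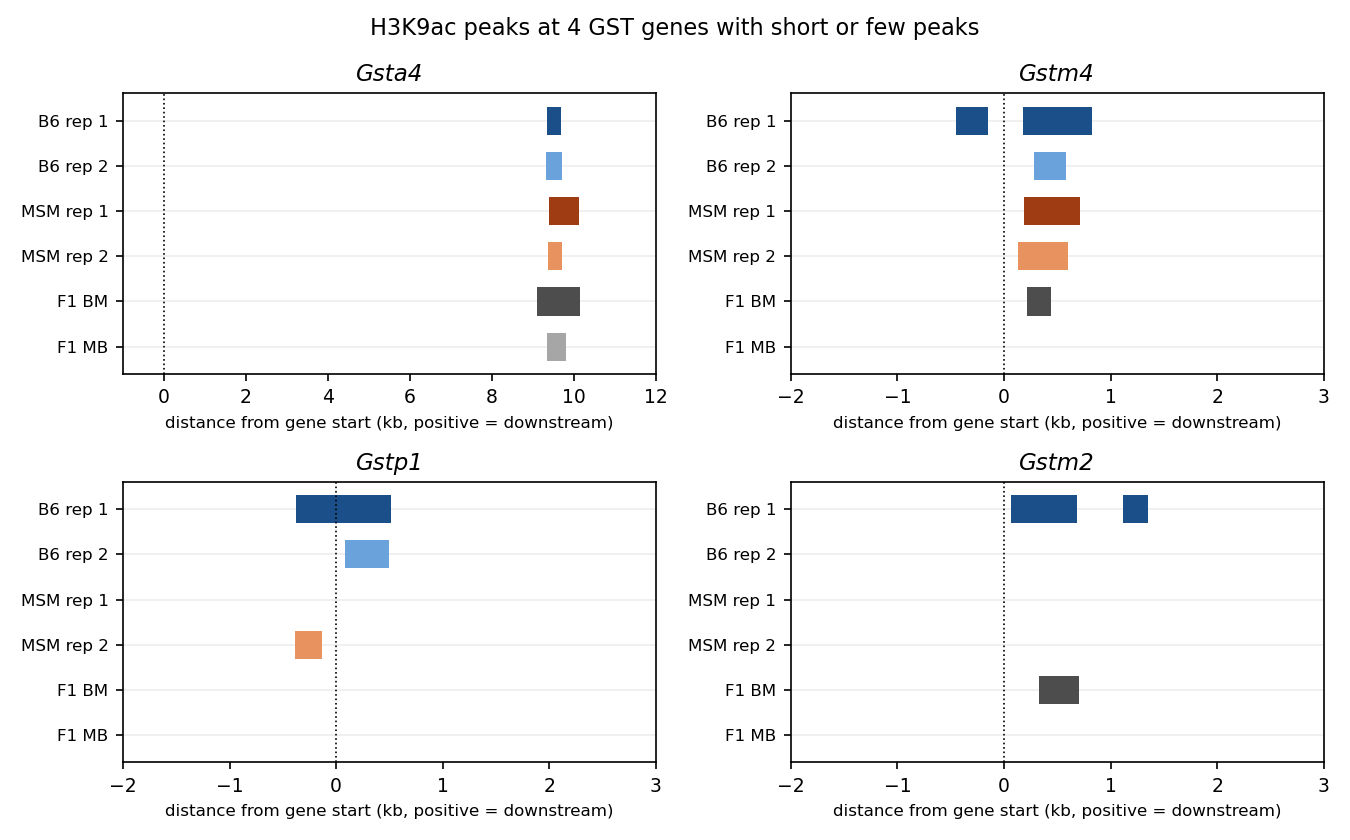
Position of the H3K9ac peaks of each library (rows, 6 libraries) at Gsta4, Gstm4, Gstp1 and Gstm2, as distance from the GENCODE gene start in kb (x axis, positive downstream, dotted line at the start), each bar being 1 peak to scale. The Gsta4 bars all lie beyond 9 kb, and the bars of B6 replicate 2 and MSM replicate 2 at Gstp1 lie on opposite sides of the start.

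Gstp1, a pi enzyme, had 885 and 413 bp under peaks in B6, 0 and 260 bp in MSM and 0 bp in both F1 libraries. Both B6 libraries were above both MSM libraries by at least 153 bp, and both F1 libraries were level with MSM replicate 1. B6 averaged 649 ± 334 bp and MSM 130 ± 184 bp (SD, n = 2), a difference of 519 bp beside a pooled SD of 269 bp, which was 283 bp without B6 replicate 1. With a −log10 q of at least 5 the strains overlapped, as they did with lists of the same covered length (0 and 413 bp in B6, 0 and 0 bp in MSM). The peaks sat at different places, from 373 bp before to 511 bp after the start in B6 replicate 1, from 81 to 493 bp after it in B6 replicate 2 and from 388 to 129 bp before it in MSM replicate 2. All 413 bp under both B6 lists were exonic and under no peak of MSM or of either F1 library. The folds were 5.23 and 3.40 in B6 and 3.17 in MSM replicate 2.

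Gstt1, a theta enzyme that also acts on halogenated methanes, had peaks over 7 separate regions. The region 34 to 897 bp after the gene start, which includes the RefSeq start 853 bp downstream, and regions at 2883 to 3247 and 3490 to 4486 bp were found in all 6 libraries. A region at 1051 to 1949 bp was found in B6 replicate 1, both MSM libraries and F1 BM. The 3 regions beyond 7 kb were found in 1 to 3 libraries each.

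The length under peaks at Gstt1 was 3829 and 1482 bp in B6, 2256 and 2286 bp in MSM, 2555 bp in F1 BM and 1202 bp in F1 MB. The strains overlapped, with the B6 libraries above and below both MSM libraries. The strongest fold was 6.50 and 5.22 in B6, 10.01 and 8.25 in MSM, 6.40 in F1 BM and 3.99 in F1 MB. On that scale both MSM libraries were above both B6 libraries, by 3.27 on average beside a pooled SD of 1.09 (exact permutation p = 0.333), and F1 MB was below all 4 parents. As percentiles of the folds in each list, B6 stood at 65.7 and 67.1 and MSM at 94.7 and 87.1. F1 BM was at 93.5, between the MSM libraries, and F1 MB at 32.9.

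**Figure D4:**
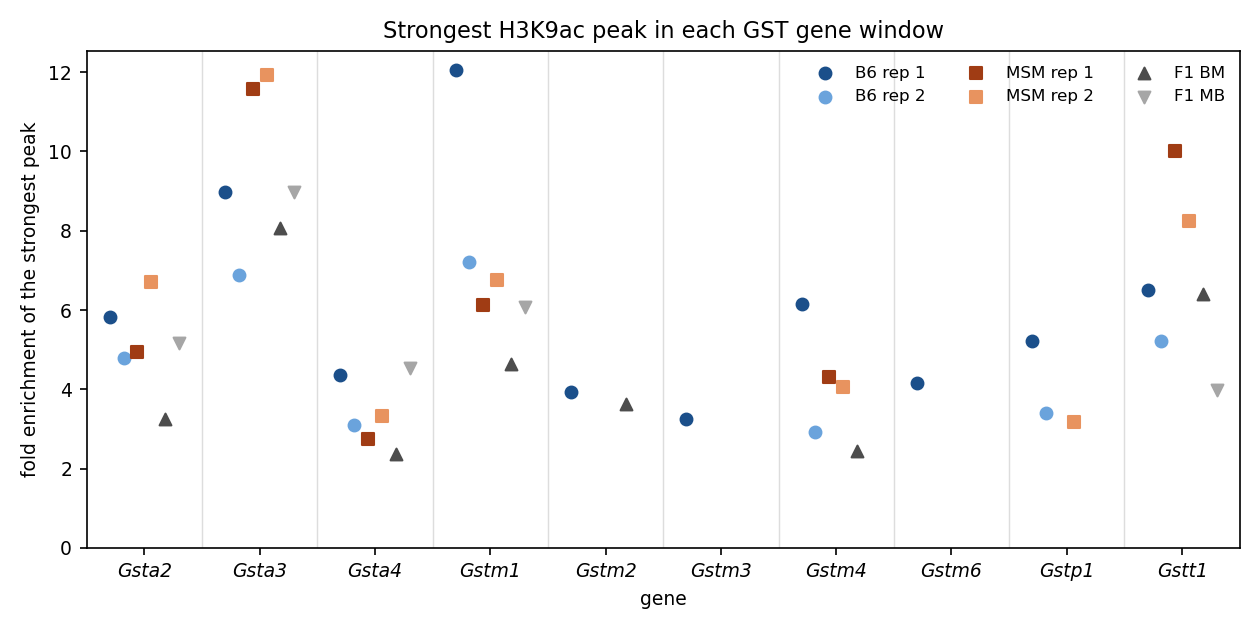
Fold enrichment of the strongest H3K9ac peak (y axis, linear ratio over the background of each library) in the window of each of the 10 GST genes (x axis), 1 point per library and no point where a library had no peak. The MSM squares of Gsta3 (11.6 and 11.9) and Gstt1 (10.01 and 8.25) lie above all other points of those genes, and the B6 circles of Gstm1 (12.1 and 7.22) above all others there.

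Over the 6 GST genes with a peak in all 4 parental libraries, the strongest fold was higher in both B6 libraries at 1, Gstm1, beside 10.8% of all such genes. It was higher in both MSM libraries at 2, Gsta3 and Gstt1, beside 8.59%. The other 3, Gsta2, Gsta4 and Gstm4, overlapped. Fold values are relative to each library's own background, so a difference between libraries also holds any difference in that background.

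In length under peaks, both B6 libraries were above both MSM libraries at 4 of the 10 genes, Gsta2, Gsta3, Gstm1 and Gstp1, beside 11.6% of the 11446 genes with a parental peak. At 0 of the 10 were both MSM libraries above both B6 libraries, beside 4.97%. With a −log10 q of at least 5 the first count was 3, Gstp1 being lost, beside 11% of genes.

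These counts depended on single libraries, as did those of all genes. Without B6 replicate 1, the longest list, the same 4 genes were higher in B6, of 7 with a peak, beside 13.2% of genes, and 2 (Gstm4 and Gstt1) were higher in MSM, beside 61.2%. Without B6 replicate 2, the shortest list, 9 of 10 were higher in B6, beside 84.2%. Gsta4 was higher in B6 without MSM replicate 1, which gave 5 of 10 beside 17.9%, and higher in MSM without MSM replicate 2, which gave 1 of 10 beside 10.2%.

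With the 11619 highest-ranked peaks of every list, 5 of the 7 genes that kept a parental peak were higher in B6 (Gstm4 being added), beside 19.3% of genes, and 0 were higher in MSM, beside 8.87%. With every list cut to 6.28 Mb, 2 of 7 (Gsta3 and Gstm1) were higher in B6, beside 15.6%, and 0 in MSM, beside 17.5%. Gsta3 and Gstm1 were thus the genes whose strains did not overlap in length under all 3 kinds of list. As percentiles among all genes of a library, Gsta3 overlapped, and Gsta2, Gstm1 and Gstp1 did not.

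Summed over the 10 genes, the length under peaks was 17979 and 9498 bp in B6, 7947 and 8428 bp in MSM, 15081 bp in F1 BM and 6749 bp in F1 MB. Both B6 libraries were above both MSM libraries and F1 MB was below all 4 parents. B6 averaged 13738.5 ± 5997 bp and MSM 8187.5 ± 340 bp (SD, n = 2), a difference of 5551 bp beside a pooled SD of 4247 bp (exact permutation p = 0.333). Leaving out B6 replicate 1 left a difference of 1310.5 bp, and leaving out B6 replicate 2 one of 9791.5 bp. With lists of the same covered length the sums were 7628 and 9498 bp in B6, 4735 and 6150 bp in MSM, 8345 bp in F1 BM and 5718 bp in F1 MB. That difference was 3120.5 bp beside a pooled SD of 1173 bp.

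**Figure D5:**
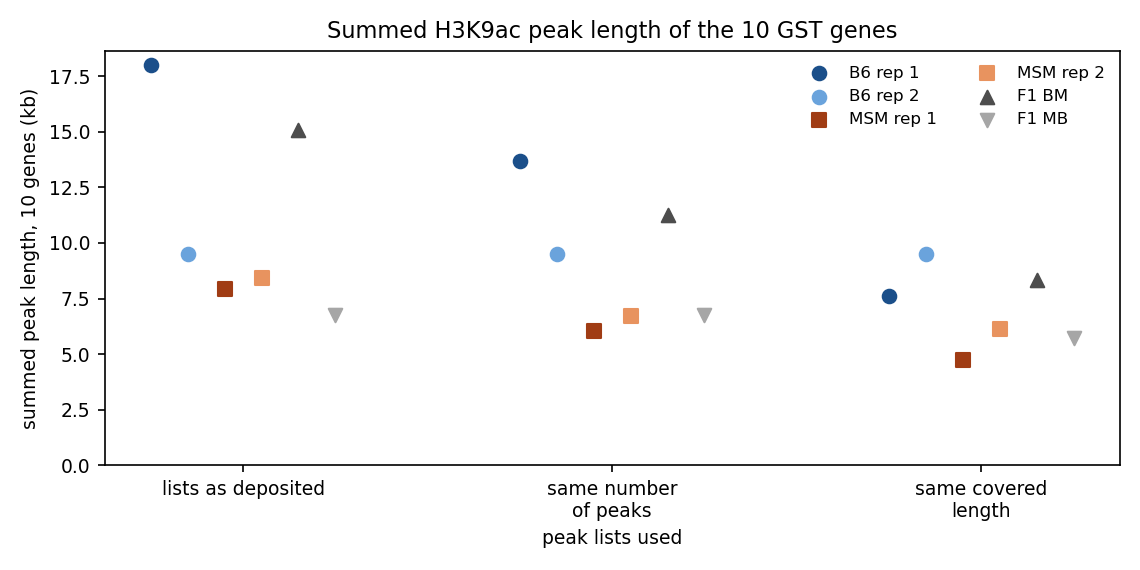
Length under H3K9ac peaks summed over the 10 GST genes (kb, y axis), 1 point per library, with the lists as deposited, with the same number of peaks and with the same covered length in every library (x axis). Both B6 circles lie above both MSM squares in each setting, and B6 replicate 1 falls from 18.0 to 7.63 kb as its list is shortened.

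Counted as whole regions, none of the 24 regions of the parental lists in the GST windows had a peak in both B6 libraries and no MSM library, beside 3.29% of all regions, and none had the reverse, beside 3.38%. By base, 9216 bp of the windows were under both B6 lists, and 2482 of them (26.9%) were under no MSM peak, beside 13.3% of the 6149884 bp of the genome under both B6 lists. Of the 6813 bp under both MSM lists 0 were without a B6 peak, beside 7.65% of the genome. With lists of the same covered length these shares were 30.4% beside 14.8%, and 0 beside 14.9%. Gstm1 gave 1299 of the 2482 bp, Gsta3 561, Gstp1 413, Gsta2 177 and Gsta4 32.

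Genes that act with the GSTs are given by list, and higher in a strain means both its libraries above both of the other in length under peaks. Their lengths are from the peak lists as deposited, with no values given for peak lists of equal size. Of 13 other soluble GST genes, 3 had a peak at the start in all 6 libraries and 3 had no peak in any (Gsta1, Gstt4 and Hpgds, the prostaglandin D synthase). Of the 9 with a parental peak, 1 was higher in B6 and 1 in MSM. Gstz1, the maleylacetoacetate isomerase, was higher in B6 (4385 and 3094 bp, against 2906 and 2846 bp in MSM), and Gstk1, the kappa enzyme, was higher in MSM by 3 bp (783 and 288 bp in B6, 786 and 820 bp in MSM). The neighbour Gstt3 shared 1 peak with Gstt1 in B6 replicate 1. So did Gm20441.

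Of the 3 microsomal GST genes, which are membrane enzymes unrelated to the soluble ones, Mgst3 had 1749 and 432 bp in B6, 0 and 0 bp in MSM, 228 bp in F1 BM and 438 bp in F1 MB. Mgst2 had no peak in any library. Mgst3 thus had a peak in both B6 and both F1 libraries and in neither MSM library.

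Of 16 genes of glutathione synthesis, recycling and breakdown, 9 had a peak at the start in all 6 libraries, 4 of the 14 with a parental peak were higher in B6 and 0 in MSM. Gclm, the modifier subunit of the enzyme that makes gamma-glutamylcysteine, had 2647 and 1488 bp in B6 and 876 and 851 bp in MSM. Lap3, a leucine aminopeptidase, had 3728 and 1880 bp in B6 and 961 and 1001 bp in MSM, and Anpep, a membrane aminopeptidase, 2052 and 899 bp against 659 and 638 bp. Ggt1 had no peak in any library.

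All 6 genes of cysteine supply from methionine had a peak at the start in every library, and 2 of them were higher in B6. Bhmt, which remethylates homocysteine, had 3207 and 2050 bp in B6 and 1294 and 1425 bp in MSM, and Cbs, cystathionine beta-synthase, 5265 and 3393 bp against 2800 and 3007 bp. Of 16 regulators and targets of Nrf2, 8 had a peak at the start in every library and 1 of the 15 with a parental peak was higher in B6, Nfe2l2, which encodes Nrf2 (3306 and 2447 bp, against 2356 and 2148 bp). Slc7a11, the cystine transporter, had none in any library. Of 5 genes of conjugate export 3 had a peak at the start in every library, and Abcc1 and Abcc4 had none. Beside the counts of peaks at the start in every library stand the 23.6% of all genes given above, and beside those of genes higher in B6 or MSM the 11.6% and 4.97%. For genes with no peak in any library the share over all genes was not computed. Of all 21911 protein-coding genes, 11446 had a peak in a parental library, so having none there was common.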

How the data were processed

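H3K9ac ChIP-seq peak lists of 6 liver libraries were used, 1 for each library, with no pooling of replicates. The paper's methods name Trim Galore and Bowtie 2 on mm10 (GRCm38), while the submitters' processing notes list Trim Galore, HISAT2, SAMtools and MACS2, so the aligner differs between these sources, and whether the input served as control is not given in the sources used here. B6 and MSM reads alike were placed on the B6 reference. For each peak the deposited lists give a fold enrichment, a linear ratio over background. The authors' peak caller also wrote the −log10 of a p-value and of a q-value, and the deposited score, which is the whole part of the −log10 q times a constant and was not used. The deposited lists hold no read numbers, so sequencing depth did not enter the analysis, and a missing peak may be one too weak for that depth.

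Peaks were assigned to gene windows with Python 3.11.15 and numpy 2.4.6, with at least 1 bp of overlap and all coordinates counted from 1. Figures were drawn with matplotlib 3.10.9. The gene start is that of the longest gene model of each symbol in GENCODE M21, and a peak within 1 kb of it is at the start. Length under peaks and strongest fold were compared between B6 and MSM (2 libraries each, grouped by the sample titles) with the two-sided exact permutation test of scipy 1.17.1 over the 6 assignments of the 4 libraries. Differences are given beside the pooled SD within strains. Interval functions were tested on simulated data. Alternatives were lists of equal number or equal covered length, a −log10 q of at least 5, 50% of a peak inside the window, 5 kb around the start alone, every coding transcript start, the percentile of the length among all genes of a library, and each replicate left out. The bp of Gstm1 under both B6 lists and no MSM list were also computed under equal number and equal length, which was chosen after seeing the data.

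All 10 members are named. From the other lists, the genes named are those whose strains do not overlap, at most 3 per direction and list by the gap relative to the larger value, those with no peak in any library, and neighbours sharing a peak with a member. The members and lists were chosen with earlier results of these data known.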

Additional observations from a re-analysis of the deposited data

How the results depend on the processing

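The summed length difference of MSM against B6 was negative in every alternative run, from −9791.5 bp without B6 replicate 2 to −1310.5 bp without B6 replicate 1. Genes with a peak at the start in all 6 libraries numbered 3 with the same covered length (Gsta2 lost) and 3 with 50% of a peak inside (Gsta3 lost). Genes higher in B6 numbered 3 at a −log10 q of at least 5 (Gstp1 lost), 5 with the same number of peaks, 2 with lists of the same covered length and 4 to 9 with a replicate left out, and genes higher in MSM 0 to 2 with a replicate left out. Regions in both B6 libraries only numbered 2 with the same number of peaks (Gstm4 and Gstp1) and 0 to 9 with a replicate left out, and regions in both MSM libraries only 0 to 1. The shares of all regions were computed for the lists as deposited only, so these counts cannot be set beside the genome. With the same covered length Gsta2 came to −154 bp, Gsta4 to −196.5 bp (from 171 bp), Gstp1 to −206.5 bp and Gstt1 to 137.5 bp (from −384.5 bp). With the same number of peaks Gstm4 came to −627 bp and Gsta2 to −290.5 bp. Gsta2 came to −309 bp with 5 kb around the start alone. Without B6 replicate 1 the differences of Gstt1 (789 bp) and Gstm4 (193.5 bp, from −126.5 bp) turned sign. That of Gsta4 did so without MSM replicate 1 (−28.5 bp), with the same number of peaks (−28 bp) and at a −log10 q of at least 5 (−0.5 bp), where Gstm4 also turned (27 bp). On the percentile scale Gsta3 lost its call, and the Gstt1 difference was 0.128. The Gsta2 strongest fold turned without MSM replicate 2 (−0.37) and that of Gstm4 without B6 replicate 1 (1.27). With 2 libraries a strain, leaving out 1 cannot move a difference by more than the pooled SD, so that comparison says nothing of stability. The cause was not tested. The 1299 bp of Gstm1 stayed 1299 bp in lists of equal number and came to 955 bp in lists of equal covered length. With the replicate block, the mean paired difference was −5551 bp (pairs −10032 and −1070 bp, exact sign-flip p = 0.5, the smallest possible). Deviations of same-numbered libraries correlated at 0.0662 over all genes, so the numbers were not taken to pair the mice. With 2 libraries a strain no test here can reach a p of 0.05, and the F1 values have no replicate.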
